A study of Rattus norvegicus with 6 samples.

Results

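Expression of 10 genes of the hepatic stellate cell and of the matrix around it was examined in rat liver, namely the fibrillar collagens Col1a1, Col1a2 and Col3a1, the basement membrane collagens Col4a1 and Col4a2, the matrix-binding proteins Sparc, Dcn and Lum, and the stellate cell genes Lrat and Reln. Members were taken as the loci whose gene symbol equalled the name, which found 9 of the 10 genes among 33022 loci. Of these, 7 reached a mean of 1 FPKM (fragments normalized to transcript length and library size) over the 6 libraries and were compared with 10201 loci that passed the same limit. The libraries came from livers of male obesity-prone Sprague Dawley rats fed a control diet (CD) or a high fat and sucrose Western diet (WD) for 2 weeks, then fasted overnight and refed. For each diet, 1 library was made of total RNA and 1 of the light part of a sucrose gradient (mRNAs bound by at most 3 ribosomes), while the remaining library held the heavy fraction (4 or more ribosomes). Each library was a pool of RNA from 3 rats, so no spread between rats could be measured and no test between diets was possible. The ribosome density of a gene was taken as its level in the heavy fraction over that in the light fraction. Since FPKM is scaled within each library, this ratio is relative to the other RNAs of the fractions. It does not give the share of a gene's mRNA in either fraction.

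Hepatic stellate cells lie between hepatocytes and the sinusoidal endothelium and are the main store of vitamin A in the body. LRAT, the enzyme that esterifies retinol for storage, and the secreted glycoprotein reelin (Reln) are markers of these cells in liver. When liver is injured, stellate cells lose their retinoid droplets, take on features of myofibroblasts and secrete type I and type III collagen, which is how fibrosis builds up. Type IV collagen, by contrast, is the network collagen of basement membranes, and sinusoidal endothelial cells make it and SPARC as well. In whole liver RNA, a lower level can come from fewer cells of a type or from less RNA per cell, and these cannot be told apart.

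Col4a1 and Col4a2 encode the alpha1 and alpha2 chains that assemble into the same type IV collagen molecule, and the genes lie head to head and are read in opposite directions. The bases between their starts are shown because this stretch is part of the shared promoter of the members with the highest heavy over light ratios on the CD. In the RefSeq promoter table of build GRCr8, 76 bases separate the starts, at chr16:84885521-84885596 and given on the plus strand, with Col4a2 to the left on the minus strand and Col4a1 to the right on the plus strand.
Col4a2-Col4a1: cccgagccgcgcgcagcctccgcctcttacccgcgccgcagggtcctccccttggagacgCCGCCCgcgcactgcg
The capitals mark the only match to the GC box GGGCGG, on the minus strand, beginning at base 61 counted from the Col4a2 side. Of windows of the same length before the starts of all genes in that table, 18.1% held a GC box on either strand. Within these bases no match to the CCAAT box (CCAAT, in 13.0% of those windows) or to TATAAA (in 4.61%) was found on either strand. The longer promoter window of Col4a1 in that table did hold a CCAAT box, but no TATAAA. The stretch was 78.9% G or C, against a median of 53.9% for those windows. In the deposited table, which uses Rnor_6.0, the Col4a2 locus (16:83387364-83438561) ended 83600 bases before the Col4a1 locus (16:83522162-83632153) began.

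How far each value can be read depended on the number of fragments behind it. That number could be inferred for 69.0% of the loci compared, since FPKM values of 1 gene step by whole fragments, and these had a median of between 8 and 21 fragments per library. The WD light library was the deepest, with 327445 fragments over the loci with such numbers against 145838 to 205877 in the other 5. Among the members it was found for Col1a1, Col4a1, Col4a2, Sparc, Dcn and Lum, and for those a 95% exact interval of the ratio between libraries was computed. The intervals cover counting error only and compare libraries, not diets, and PCR copies are not independent molecules. A ratio of at least 1.5 was called higher and one of at most 0.75 lower. The study set these cuts for ribosome density on the CD over that on the WD, and here they were applied to WD over CD and to heavy over light in every comparison. A listed 0 can be a failed estimate, since 16 of 82 ribosomal protein symbols, which every cell uses, were listed at 0 in all 6 libraries.

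Some genes of stellate cells were detected in every library, though several of the quiescent and of the activated list were low or listed at 0. Lrat and Reln were above 0 in all 6 libraries. The intermediate filament genes Des and Gfap, used to identify stellate cells, were low. Des stood at 0.648 to 2.78 FPKM (1 to 7 fragments) and Gfap was listed at 0 in 4 libraries. Of 16 quiescent stellate genes, 15 were found and 12 could be compared. Some others of that list were higher than Des and Gfap, with Ecm1 at 39.0 to 95.4 FPKM, Colec11 at 14.5 to 47.5 and Vim at 10.7 to 19.5. Others were low as well, with Cygb at 1.40 to 3.39 FPKM and Bambi at 0.691 to 4.24. Lhx2 and Ngfr had means of 0.804 and 0.286 FPKM over the 6 libraries. Hand2 was listed at 0 in the CD light fraction and had at most 3 fragments in any library. Of 12 genes of activated stellate cells, 8 were found and 3 could be compared. Acta2, the smooth muscle actin of myofibroblasts, had at most 1 fragment in any library, and Postn, Fap and Spp1 were listed at 0 in all 6, whereas Lox of the same list stood at 7.99 to 29.9 FPKM.

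In total RNA, 6 of the 7 genes differed between diets by less than either fold, and decorin was the exception. Col1a1, Col4a1, Col4a2, Sparc, Lrat and Reln had WD over CD ratios between 0.880 and 1.26. Called higher was 1 of 7 and called lower 0 of 7, against a background of 18.0% of all loci called higher and 23.1% called lower. The median log2 change was 0.02 for the members and 0.02 for all loci. Of the 5 members with intervals, 1 had an interval off 1, and so did 6.53% of all loci with intervals.

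The fibrillar collagens could be followed for 1 gene of 3. Col1a1 (10:82745801-82762789), the alpha1 chain of type I collagen, had 5.91 FPKM (CD) and 5.20 (WD) in total RNA and stood at 2.96 in the CD and 6.17 in the WD light fraction, and at 2.69 in the CD and 2.62 in the WD heavy fraction. These values rested on 38, 32, 13, 59, 11 and 11 fragments in the same order. The interval of the WD over CD ratio included 1 in total RNA (0.880, 0.533 to 1.45) and in the heavy fraction (0.976, 0.384 to 2.48), whereas the WD light fraction was higher (2.09, 1.13 to 4.15). Col1a2 (4:31534225-31569151), the alpha2 chain that completes the type I molecule, was listed at 0 in all 6 libraries although Col1a1 was above 0 in each. No locus bore the symbol Col3a1 alone. The gene was merged with a second gene model into 1 locus (9:52023295-52059217) listed at 68.6 FPKM (CD) and 180 (WD) in total RNA, 542 and 695 in the light, and 65.3 and 60.5 in the heavy fractions. Since its lower bound was 0 in all 6 libraries and its upper bound reached 676 FPKM in CD total RNA, nothing on type III collagen was drawn from it.

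The type IV collagens were the members whose heavy over light ratio had an interval above 1 on both diets. Col4a1 stood at 11.2 and 10.6 FPKM in CD and WD total RNA, at 4.21 and 7.10 in the light fractions, and at 13.1 and 18.3 in the heavy fractions, from 82, 74, 21, 77, 61 and 87 fragments. Its partner Col4a2 stood at 5.53 and 5.20 FPKM in total RNA, at 2.96 and 5.58 in the light, and at 10.1 and 11.6 in the heavy fractions, from 30, 27, 11, 45, 35 and 41 fragments. Both genes were highest in the heavy fractions and lowest in the CD light fraction. The ratio of heavy to light for Col4a1 was 3.12 (1.87 to 5.39) on the CD and 2.58 (1.87 to 3.55) on the WD. For Col4a2 it was 3.42 (1.70 to 7.46) and 2.08 (1.33 to 3.24). The deposited bounds are wider than these counting intervals and overlapped between the fractions for both genes on both diets. For Col4a1 on the CD they ran from 0.837 to 7.58 FPKM in the light and from 3.03 to 23.2 in the heavy fraction. The level of Col4a1 over that of Col4a2 in total RNA was 2.03 (1.32 to 3.20) on the CD and 2.04 (1.30 to 3.30) on the WD. It was between 1.27 and 1.58 in the 4 fractions, where the interval was off 1 in the WD heavy fraction alone. These levels are per length of the deposited gene models.

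Of the matrix-binding proteins, Sparc had the highest level and a heavy over light ratio below 1 on both diets. SPARC (10:40742400-40764185) is a collagen-binding glycoprotein, and its RNA stood at 48.8 and 54.5 FPKM in CD and WD total RNA, at 38.5 and 60.0 in the light, and at 22.1 and 21.6 in the heavy fractions. With 104, 111, 56, 190, 30 and 30 fragments it was the best counted of the members. Heavy over light was 0.575 (0.356 to 0.912) on the CD and 0.360 (0.236 to 0.531) on the WD, so its order between fractions was opposite to that of the type IV collagens on both diets. Here too the deposited bounds of the fractions overlapped on both diets.

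Decorin (7:38742051-38782323), a small proteoglycan that binds collagen fibrils, gave the highest ratio in total RNA of the 7 genes, on the fewest fragments of those with fragment numbers. Dcn went from 1.05 FPKM (2 fragments) on the CD to 5.50 (10 fragments) on the WD in total RNA, a ratio of 5.23 (1.11 to 49.1). It was at 4.62 FPKM in the CD and 1.77 in the WD light fraction (6 and 5 fragments), and at 1.65 and 4.84 in the heavy fractions (2 and 6 fragments). The ratio between diets was thus below 1 in the light fraction (0.383, 0.0925 to 1.51) and above 1 in the heavy fraction (2.93, 0.524 to 29.7), both with intervals that include 1. Lum (7:38819771-38826862), the related proteoglycan lumican, had 1 fragment in each total RNA library, at 0.482 FPKM on the CD and 0.504 on the WD, and was listed at 0 in the 4 fractions, so no ratio is given.

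The stellate cell genes had WD over CD ratios of 1.26 (Lrat) and 1.02 (Reln) in total RNA, and Lrat passed a threshold in each fraction. Lrat (2:181896305-181905300) had 21.4 FPKM (CD) and 27.0 (WD) in total RNA and stood at 27.0 in the CD and 17.0 in the WD light fraction, and at 27.4 in the CD and 48.4 in the WD heavy fraction. Reln (4:9347528-9773670) stood at 12.5 and 12.7 FPKM in total RNA, at 16.8 and 15.5 in the light, and at 14.8 and 19.3 in the heavy fractions. No fragment number could be inferred for either. Each sums 2 groups of transcript starts, and the bounds Cufflinks gives overlap between diets in every pair. For Lrat in the heavy fraction they ran from 3.99 to 50.9 FPKM on the CD and from 11.3 to 85.5 on the WD.

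**Figure D1:**
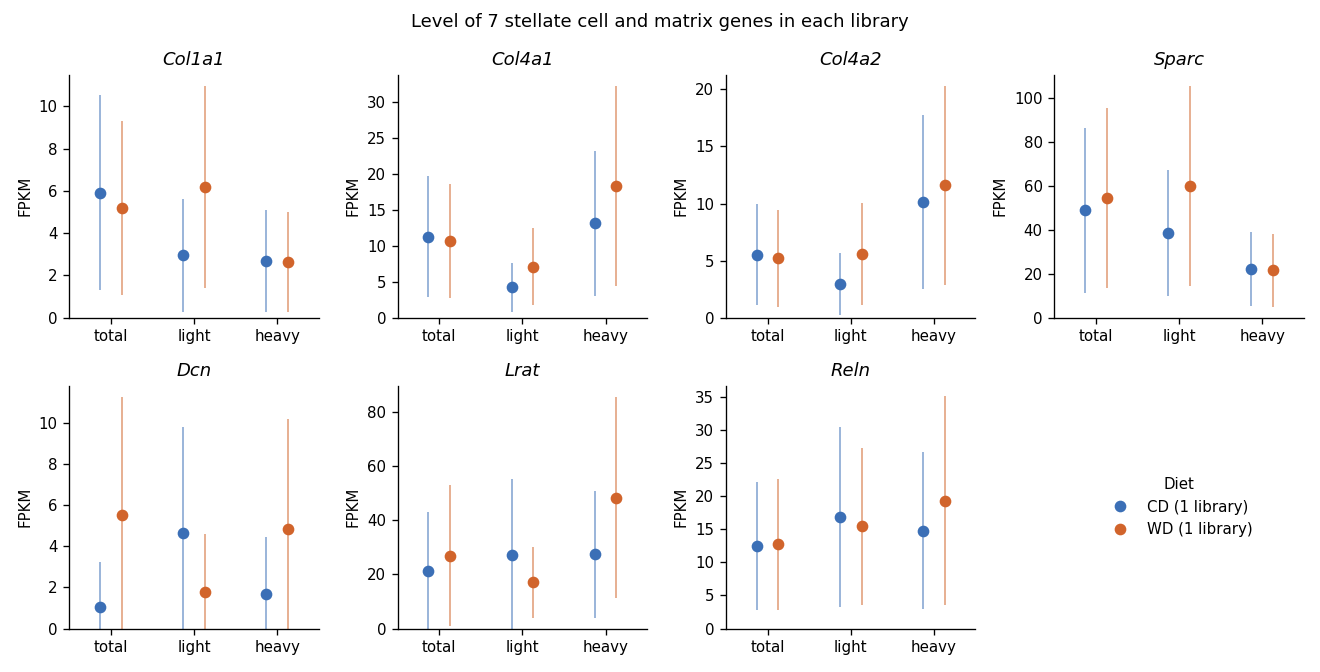
FPKM (vertical axis, from 0, a scale for each gene) of the 7 genes compared in total RNA and in the light and heavy fractions, with 1 point for each library (CD blue, WD orange) and lines for the lower and upper bounds deposited with the values. Col4a1 and Col4a2 are highest in the heavy fractions, Sparc is lowest there, and the bounds of the diets overlap in every pair.

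In the light fraction, the collagens and Sparc were higher on the WD while Lrat and Dcn were lower. Called higher were Col1a1 (2.09), Col4a2 (1.88, 0.958 to 4.03), Col4a1 (1.69, 1.03 to 2.88) and Sparc (1.56, 1.15 to 2.14), and called lower were Lrat (0.629) and Dcn (0.383), with Reln at 0.918 between. That is 4 of 7 higher and 2 of 7 lower, against 26.2% and 27.1% of all loci, and 3 of 5 intervals lay off 1, against 16.4%. The median log2 change was 0.64 for the members and 0.02 for all loci. With each library rescaled to the same sum over loci with a symbol, which moved the median of all loci to -0.29, the ratios of the 4 genes were 1.63 for Col1a1, 1.47 for Col4a2, 1.32 for Col4a1 and 1.22 for Sparc, so that 1 of 7 was higher and 3 of 7 lower. Measured from the all-loci median without rescaling, the log2 change of these 4 genes was 0.62 to 1.02.

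The WD light library also stood apart in red cell genes, of which 3 of 4 were higher and 1 of 4 lower than in the CD light library. Of all loci, 26.2% were higher and 27.1% lower. The 4 erythroid genes found of 6 summed to 414 FPKM there, to 52.6 in the CD light fraction and to between 16.8 and 35.7 in the other libraries. Hbb, the beta chain of hemoglobin, stood at 13.9 FPKM in the CD and 242 in the WD light fraction, whereas Alas2, the first enzyme of heme synthesis in red cells, stood at 19.7 and 7.18 (ratio 0.364, 0.189 to 0.693). Markers of the sinusoidal endothelium, also a source of Col4a1, Col4a2 and Sparc, summed to 147 FPKM in the CD and 127 in the WD light fraction, over 10 genes found of 11. Fcgr2b alone stood at 70.7 and 43.3 FPKM there. By gene, 2 of 10 were higher and 2 of 10 lower, against 26.2% and 27.1% of all loci, with a median log2 change of 0.007. The part of these differences and of depth in the ratios of the light fraction was not tested.

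In the heavy fraction, Lrat and Dcn were the genes called higher on the WD. The ratio was 1.76 for Lrat and 2.93 for Dcn, and it was 1.39 (0.992 to 1.96) for Col4a1, 1.30 for Reln, 1.14 (0.711 to 1.85) for Col4a2 and 0.976 for both Col1a1 and Sparc. Thus 2 of 7 were higher and 0 of 7 lower, where 21.8% of all loci were higher and 26.0% lower. None of the 5 intervals was off 1 (0 of 5), against 6.37% of all loci. The median log2 change was 0.38 for the members and -0.02 for all loci.

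**Figure D2:**
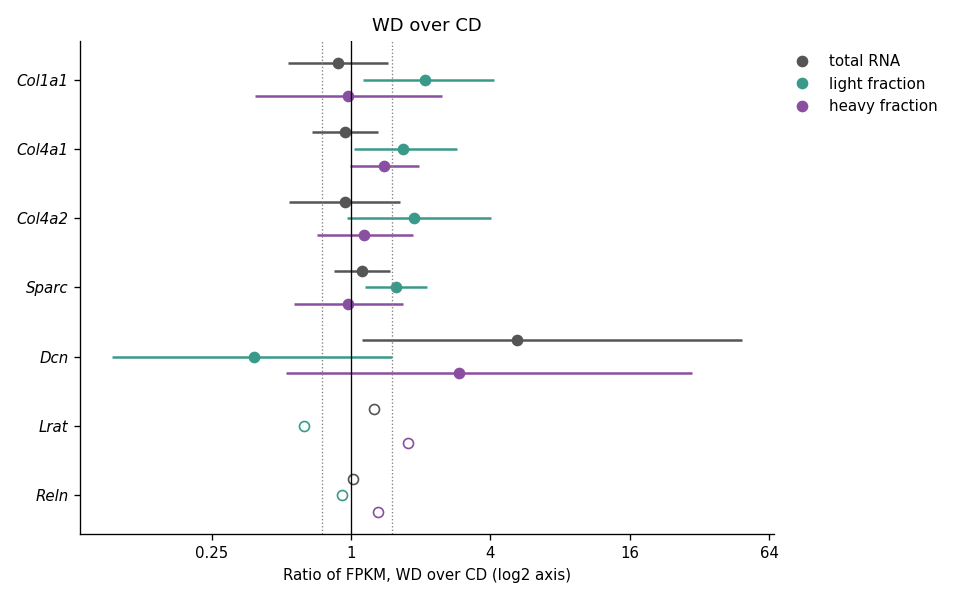
Ratio of FPKM on the WD to that on the CD (log2 axis) for each gene in total RNA, the light and the heavy fraction, with 95% exact counting intervals. Open circles are genes without fragment numbers, dotted lines the thresholds of 0.75 and 1.5. Col1a1, Col4a1, Col4a2 and Sparc are highest in the light fraction, and Lrat and Dcn are below 1 there and above 1 in the heavy fraction.

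On both diets the heavy over light ratio had an interval above 1 for Col4a1 and Col4a2 and below 1 for Sparc. On the CD, Col4a1 and Col4a2 were called higher in the heavy fraction and Sparc and Dcn (0.358, 0.0353 to 2.00) lower, while Col1a1 (0.909), Lrat (1.02) and Reln (0.882) lay between. The 2 of 7 higher and 2 of 7 lower compare with 33.2% and 36.7% of all loci, and 3 of 5 intervals lay off 1, against 27.9%. On the WD, Lrat (2.85), Dcn (2.74, 0.696 to 11.3), Col4a1 and Col4a2 were higher and Sparc and Col1a1 (0.425, 0.201 to 0.817) lower, with Reln at 1.25. Those 4 of 7 and 2 of 7 compare with 32.2% and 38.5% of all loci, and 4 of 5 intervals lay off 1, against 35.1%. Measured as heavy over total RNA instead, Col4a2 (1.83 on the CD and 2.23 on the WD) and Sparc (0.453 and 0.396) kept their calls on both diets, and Col4a1 (1.17 and 1.72) and Lrat (1.28 and 1.79) stayed above 1, with Col4a1 no longer called on the CD. Col1a1 (0.455 and 0.504) was then called lower on the CD as well, Reln (1.18 and 1.52) passed from below to above 1 on the CD and was called higher on the WD, and Dcn changed sides on both diets (1.57 and 0.880).

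**Figure D3:**
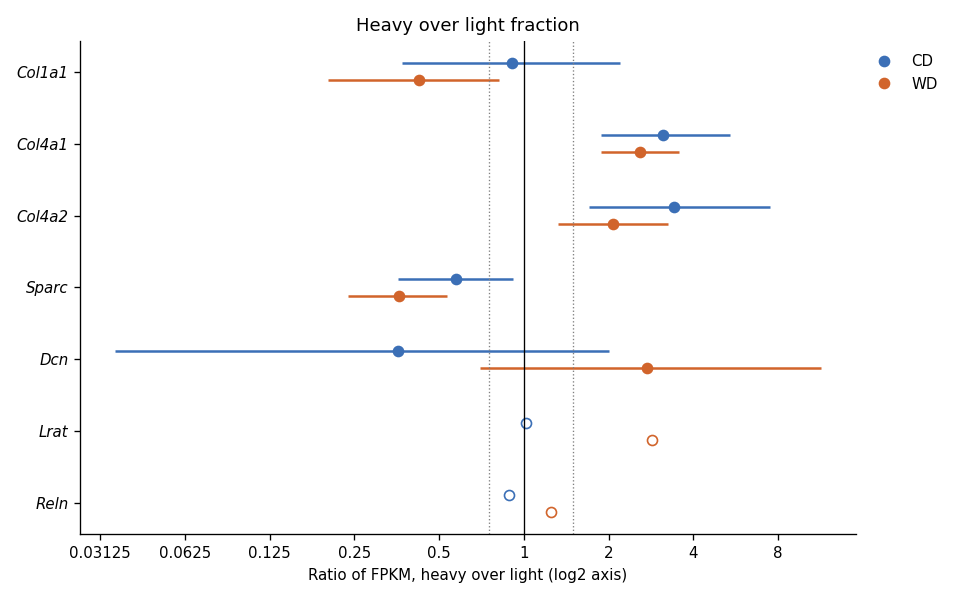
Ratio of FPKM in the heavy fraction to that in the light fraction (log2 axis) on each diet (CD blue, WD orange), with 95% exact counting intervals. Open circles are genes without fragment numbers. Col4a1 and Col4a2 lie above 1 and Sparc below 1 on both diets, and Lrat moves from 1.02 to 2.85.

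The change of ribosome density between diets had no interval off 1 for any member with fragment numbers. It was 0.468 (0.148 to 1.49) for Col1a1, 0.608 (0.247 to 1.43) for Col4a2, 0.626 (0.334 to 1.18) for Sparc, 0.826 (0.437 to 1.53) for Col4a1 and 7.64 (0.771 to 104) for Dcn. Lrat had a ratio of 2.80 and Reln one of 1.42. Hence 2 of 7 were higher and 3 of 7 lower, where 28.0% and 36.4% of all loci were, and 8.71% of loci with intervals had one off 1. With the cuts applied to CD over WD instead, a choice made after seeing the data, Reln (0.704) was also past one, which gave 3 of 7 at or above 1.5 and 3 of 7 at or below 0.75, where 31.2% and 33.1% of all loci were. The ratios below 1 of the collagens rest on the light libraries, since with heavy over total RNA the change was 1.11 for Col1a1, 1.48 for Col4a1 and 1.22 for Col4a2, and it was 0.875 for Sparc, 1.4 for Lrat and 0.560 for Dcn. With the libraries rescaled to the same sum, Col4a1 also passed from below 1 to 1.04.

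Genes close to the members in function were read from lists, counted as higher or lower by the same thresholds. In total RNA the counts of every list below are to be read against 18.0% of all loci called higher and 23.1% called lower. Among quiescent stellate genes other than the members, 4 of 12 were higher and 1 of 12 lower in total RNA (median log2 change 0.31). Colec10, a collectin of stellate cells, had 27 (CD) and 43 (WD) fragments in total RNA and was higher on the WD (1.67, 1.01 to 2.80). Pdgfrb, the PDGF receptor of stellate cells, stood at 7.35 and 5.22 FPKM in total RNA. Among the 3 activated stellate genes compared, 2 were higher in total RNA. Timp1, a protease inhibitor, was 1 of them on 1 and 2 fragments (ratio 2.09, 0.109 to 123). The other was Lox, which cross-links collagen, at 10.2 and 22.4 FPKM in total RNA, 13.0 and 22.7 in the light and 7.99 and 29.9 in the heavy fractions.

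Among the other collagens in total RNA, 0 of 10 were higher and 3 of 10 lower, where 18.0% and 23.1% of all loci were. Col18a1, a basement membrane collagen, stood at 80.0 and 76.6 FPKM in total RNA, Col14a1 at 19.7 and 19.4 (ratio 0.983, 0.751 to 1.29), and Col6a1 at 19.0 and 14.6. Col18a1 was at 35.9 FPKM in both light fractions and at 89.2 and 78.1 in the heavy fractions, an order like that of the type IV collagens. Other basement membrane genes had 1 of 7 higher and 2 of 7 lower, and Nid1, which links laminin to type IV collagen, had a ratio of 0.90 (0.631 to 1.28) and heavy over light ratios of 1.47 and 1.32. Among the proteoglycans and matrix glycoproteins, 2 of 12 were higher and 2 of 12 lower. Bgn, the proteoglycan biglycan, stood at 71.5 and 74.8 FPKM in total RNA and Prelp, a proteoglycan of the decorin family, at 14.4 and 8.66, while Vtn (vitronectin), a plasma protein of hepatocytes, had a ratio of 0.95.

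Most enzymes that process collagen had a heavy over light ratio called higher. On the CD, 11 of 15 were higher in the heavy than in the light fraction and 3 of 15 lower, where 33.2% and 36.7% of all loci were. On the WD the counts were 9 of 15 and 2 of 15, where 32.2% and 38.5% of all loci were. The median log2 ratio of the list was 0.97 on the CD and 1.12 on the WD. Hepatocyte genes leaned the same way, with 6 of 8 higher and 0 of 8 lower on the CD, and 5 of 8 and 1 of 8 on the WD. P4hb, a subunit of prolyl 4-hydroxylase, had heavy over light ratios of 3.21 and 3.63, and Loxl4 ratios of 1.90 and 2.2. In total RNA 0 of 15 were higher on the WD and 4 of 15 lower, among them Pcolce, which enhances procollagen cleavage, at 5.94 and 2.76 FPKM. Matrix proteases and their inhibitors had 0 of 9 higher and 3 of 9 lower, with Mmp2, a gelatinase that degrades type IV collagen, at 20 and 11 fragments (0.575, 0.249 to 1.26), Mmp14 at a ratio of 0.958 and Mmp19 at 0.931.

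Genes of TGF-beta and PDGF signaling, the main inputs for stellate cell activation, had 3 of 14 higher and 4 of 14 lower in total RNA, shares near the 18.0% and 23.1% of all loci. Tgfbr2, the type II TGF-beta receptor, had 142 and 143 fragments and a ratio of 1.05 (0.829 to 1.34). Smad3, which carries the TGF-beta signal to the nucleus, had a ratio of 0.621 (0.332 to 1.13), and the ligand gene Pdgfc had 1.91 FPKM (CD) and 5.99 (WD) in total RNA. Genes of retinoid storage and transport had 1 of 8 higher and 1 of 8 lower in total RNA. In the light fraction 0 of 8 were higher and 5 of 8 lower (median log2 change -0.55), where 26.2% of all loci were higher and 27.1% lower. Ttr, a plasma carrier of thyroid hormone and retinol, had a ratio of 0.746 in total RNA and 0.563 in the light fraction, and Rdh11, a retinol dehydrogenase, ratios of 2.68 and 0.495. The reelin receptor gene Vldlr was below 1 FPKM in all 6 libraries and 0 of the 3 genes of the reelin pathway could be compared.

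**Figure D4:**
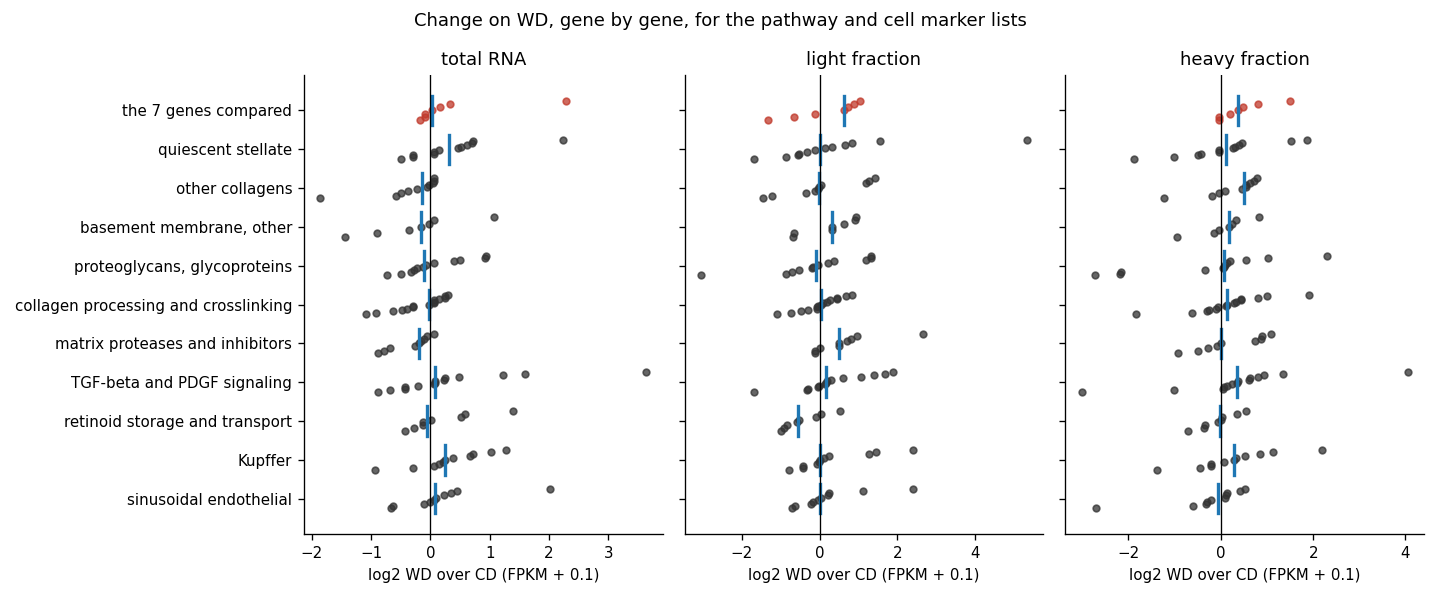
Log2 change on the WD (FPKM plus 0.1) in total RNA and in the light and heavy fractions, with 1 point for each gene compared, a blue line at the median of each list and the 7 members in red. The other 10 lists drawn are those of stellate cell, matrix, signaling and retinoid genes with 7 or more genes compared and those of Kupffer and sinusoidal endothelial cells. In total RNA the medians of the lists drawn lie between -0.19 and 0.31, and in the light fraction the retinoid genes lie lowest, at -0.55.

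Markers of other liver cells gave the setting of these values in total RNA. Kupffer cell genes, all 11 found, summed to 143 FPKM on the CD and 175 on the WD, with 4 of 11 higher and 1 of 11 lower, including Csf1r (16.1 and 25.6 FPKM), Cd68 (5.05 and 12.3) and C1qb (11.9 and 6.22). Sinusoidal endothelial genes summed to 169 and 202 FPKM, with 1 of 10 higher and 2 of 10 lower, among them Fcgr2b (73.2 and 93.4), Clec4g (2.75 and 11.5) and Oit3 (8.38 and 5.26). Fragments on the CD and WD were 6 and 14 for Cd68, 12 and 6 for C1qb, 2 and 8 for Clec4g, and 10 and 6 for Oit3. The interval of the ratio included 1 for each of them. Of the 8 hepatocyte genes 0 were higher and 2 lower, and Alb had a ratio of 0.927. Portal fibroblast genes, another source of Col1a1 and Dcn, summed to at most 1.57 FPKM in any library, with Thy1 listed at 0 in all 6. Smooth muscle genes summed to 8.99 and 5.45 FPKM in total RNA, cholangiocyte genes to 21.8 and 27.0, mesothelial genes to 77.2 and 87.1, nearly all of it Krt18, which hepatocytes also express, and adipocyte genes to 16.3 and 16.4, all of it Cidec. The part of these markers in the values of the members was not tested.

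The loci whose profile over the 6 libraries was most like the mean profile of the 7 members were Slc13a3 (Pearson r 0.986), Vps4a (0.960), Mlxipl (0.951), Tcn2 (0.948) and Rexo4 (0.945), among 3801 loci ranked. The members' mean profile was highest in the WD heavy fraction and lowest in the CD light fraction, an order that the members did not share. Only Col4a1 and Col4a2 were lowest in the CD light fraction. Col1a1 and Sparc were lowest in the WD heavy fraction, Lrat in the WD light fraction, and Dcn and Reln in CD total RNA. These are correlations over 6 libraries that differ in fraction and depth, and 15 loci reached 0.9.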

How the data were processed

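Total RNA and RNA of light and heavy gradient fractions were sequenced from rat liver, with 1 library per group. Per the labels, the authors used bcl2fastq, TopHat, Cufflinks and Cuffnorm with Rnor_6.0 (versions are not given in the labels), and deposited, for each locus, an FPKM value and its lower and upper bound. The annotation is not given in the sources used here. Loci were compared if named, successfully estimated and at a mean of 1 FPKM or more, and log2 changes used FPKM plus 0.1. Coordinates are 1-based.

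Fragment numbers were inferred as the whole numbers (within 0.02 fragments) that follow from 1 scale for each library and 1 FPKM step for each gene. Intervals are Clopper-Pearson for a ratio and conditional exact for a density change. The smallest numbers that fit were taken, and a common multiple of them would fit too. The fragment numbers and the interval of the total RNA ratio were tested on simulated data, whereas the conditional exact interval was not. Those data were built from the inferred scales and steps with counting error only. The test therefore cannot show that the real numbers are right or that the interval holds with PCR copies. Computation used scipy 1.17.1, numpy 2.4.6 and pandas 2.3.3 under Python 3.11.15, with figures from matplotlib 3.10.9.

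Members and lists were chosen with earlier results of these data known. From each other list were named the gene with the highest mean and, above 5 FPKM, those with the highest and lowest total RNA change. The result of 1 gene that this rule names is not reported here. The 5 most similar loci needed a mean of 10 FPKM and a symbol on 1 locus. Des, Gfap, Ecm1, Colec11, Vim, Cygb, Bambi, Lhx2, Ngfr, Hand2, Acta2, Postn, Fap, Spp1 and Thy1 were named after their values were seen, as were the list members at 0. Alternatives were the pseudocount, the filter, the scaling, the sum over a symbol's loci, the fold and heavy over total RNA. The RefSeq promoter table (GRCr8) held 7 of the 10 members.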

Additional observations from a re-analysis of the deposited data

Results flagged for a closer look

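Dcn and Lrat lay on opposite sides of 1 in the fractions, a difference that was not tested. The WD over CD ratio of Dcn was 0.383 in the light and 2.93 in the heavy fraction, from 6, 5, 2 and 6 fragments. That of Lrat was 0.629 in the light and 1.76 in the heavy fraction, without fragment numbers.

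The merged locus that holds Col3a1 and a second gene model, which entered no comparison, was listed at 180 FPKM on the WD and 68.6 FPKM on the CD in total RNA, with lower bounds of 0.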

How the results depend on the processing

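No paired analysis was possible because each group is 1 library, and no library could be left out for the same reason. Of 381 single values of a member recomputed under the alternatives, 366 stayed within the counting error of the member (for Lrat and Reln, that of the summed members), 10 moved further and 5 reversed. The filter, the fold and the sum over a symbol's loci cannot change a single value of these members. Much of the 366 was therefore fixed in advance and is no measure of stability. Restricting the members to a mean of at least 10 FPKM, which leaves fewer genes, gave 0 past either fold in total RNA, 3 in the light and 1 in the heavy fraction, 2 for heavy over light on the CD and 3 on the WD, and 2 for the density change. It gave a median log2 change of 0.26 in the light fraction. With a filter of 0.1 FPKM or none, which adds Lum, the median was 0.32 in the light fraction and 0.68 for heavy over light on the WD. Rescaling to the same sum gave 0.29 and 1.34 for the same medians. At folds of 2 and 0.5, 2 members were past in the light fraction, 1 in the heavy fraction and 3 for the density change. With heavy over total RNA, the median was 0.24 on the CD, 0.60 on the WD and 0.28 for the density change, with 1 member past either fold for that change. On that measure Dcn reversed on the CD (0.61), on the WD (-0.18) and in the density change (-0.79), and the density change of Col4a2 (0.28) and Col1a1 (0.15) reversed, where the light fraction no longer enters. Low fragment numbers, at most 10 per library for Dcn, limit what its ratios can show, and 1 pool per group limits all of them.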
